A study of Mus musculus with 12 samples.

Results

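CD-numbered antigens are leukocyte surface molecules whose genes carry a cluster of differentiation number, the numbering first given to antibody targets on blood cells. They were taken as every endogenous row of the panel whose symbol begins with Cd and a digit, leaving out Cd14, Cd44, Cd74 and Cd244. This rule gave 36 of 750 endogenous genes, and it used no measured value. Of the 36, 12 are T cell antigens, 3 B cell antigens, 5 myeloid antigens and 10 co-stimulatory antigens or their relatives, and 6 are broadly expressed or fit no single class.

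The signal comes from total kidney RNA of 12 female mice aged 8-10 weeks, 3 in each of 4 groups. KO NTS mice lack Aim2, a cytosolic sensor of double-stranded DNA, and received nephrotoxic serum, which induces glomerulonephritis through antibodies to the glomerular basement membrane. WT NTS mice carry wild-type Aim2 and received the same serum, and both serum-treated groups were examined at day 9. KO control and WT control mice, of those same genotypes, were untreated. The knockout is described as B6 and the wild type as F1 littermates, and nothing further on strain is known here. The labels name no promoter or Cre driver for the knockout. Genotypes are as labelled, since Aim2 itself was not analysed here.

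T cells recognise antigen through a receptor that signals by way of the CD3 chains, with CD4 or CD8 as the co-receptor for MHC class II or class I. A second signal comes from CD80 and CD86 on antigen-presenting cells, which bind CD28 on the T cell. CD40 on the presenting cell meets its ligand, encoded by Cd40lg, on activated T cells, while CD274 (PD-L1) restrains T cells. In glomerulonephritis, monocytes, macrophages and T cells are known to enter the kidney, and resident macrophages and dendritic cells are present in the healthy organ. In whole-kidney RNA, fewer cells of a type and less RNA per cell cannot be told apart.

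The deposited signal was scaled on 20 housekeeping genes and had a floor in each sample, the geometric mean of its negative controls, which lay between 10.02 and 15.11. Of 770 genes, those at the floor numbered 59 to 74 per sample in KO NTS, 53 to 88 in WT NTS, 111 to 113 in KO control and 117 to 140 in WT control. The summed endogenous signal also followed the groups. It was 1335199 to 1346839 in KO NTS, 601490 to 967120 in WT NTS, 596307 to 638895 in KO control and 609251 to 648649 in WT control samples. Of 770 genes, 677 reached a signal of 20 in at least 3 samples and were tested with limma on log2(signal + 1). Of the 36 antigens, 26 were tested. Among the other 10 were the T cell antigens Cd7, Cd8a, Cd8b1 and Cd96, the B cell antigen Cd79a, the lectin gene Cd209e, the ligand genes Cd40lg and Cd70, and the early activation antigen Cd69. Cd200r1 passed that filter through its KO NTS samples alone, and Cd4 through its KO NTS samples and 1 KO control. WT NTS 1 correlated more closely with the KO NTS samples (0.975 to 0.98, across genes, log2 scale) than with the other WT NTS samples (0.968 to 0.97). WT control 2 was likewise closer to the KO controls (0.99 to 0.995) than to the other WT controls (0.958 to 0.982).

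After nephrotoxic serum, several antigens of the co-stimulatory class and 2 of 4 tested myeloid antigens rose in KO kidneys. Of the tested CD3 chains, 0 passed, and many of their values lay near the background floor. The 1 tested B cell antigen, Cd79b, did not pass either, and it was above the floor in all 12 samples. KO NTS exceeded KO control for 11 of 26 tested antigens and was lower for 0, a share of 42.3%. On the whole panel 39.6% of tested genes were higher and 8.57% lower, so the share of antigens called was close to that of the panel. For 14 of the 26, including Cd3d, Cd3e and Cd1d1, every KO NTS sample lay above every KO control sample, as for 51.7% of the panel. The 11 called were, in the co-stimulatory class, Cd80, Cd86, Cd276, Cd40 and the inhibitory receptor gene Cd200r1. The others were the myeloid genes Cd68 and Cd300a, the broader genes Cd84, Cd48 and Cd47, and the co-receptor gene Cd4. WT NTS exceeded WT control for 1 of 26, Cd48, and was lower for 0, where 5.47% of the panel was higher and 2.51% lower. KO NTS exceeded WT NTS for 9 of 26 (34.6%), against 31.2% of the panel, and was lower for 0, against 2.36%. These 9 were the genes just listed without Cd40 and Cd48. Every KO NTS sample lay above every WT NTS sample for 11 of the 26, against 39.1% of the panel. Both comparisons use the same KO NTS samples. Untreated KO and WT kidneys differed in 0 of 26 antigens with limma, as in 0% of the panel, and 1 antigen had an unadjusted p under 0.05, against 8.42% of the panel.

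**Figure D1:**
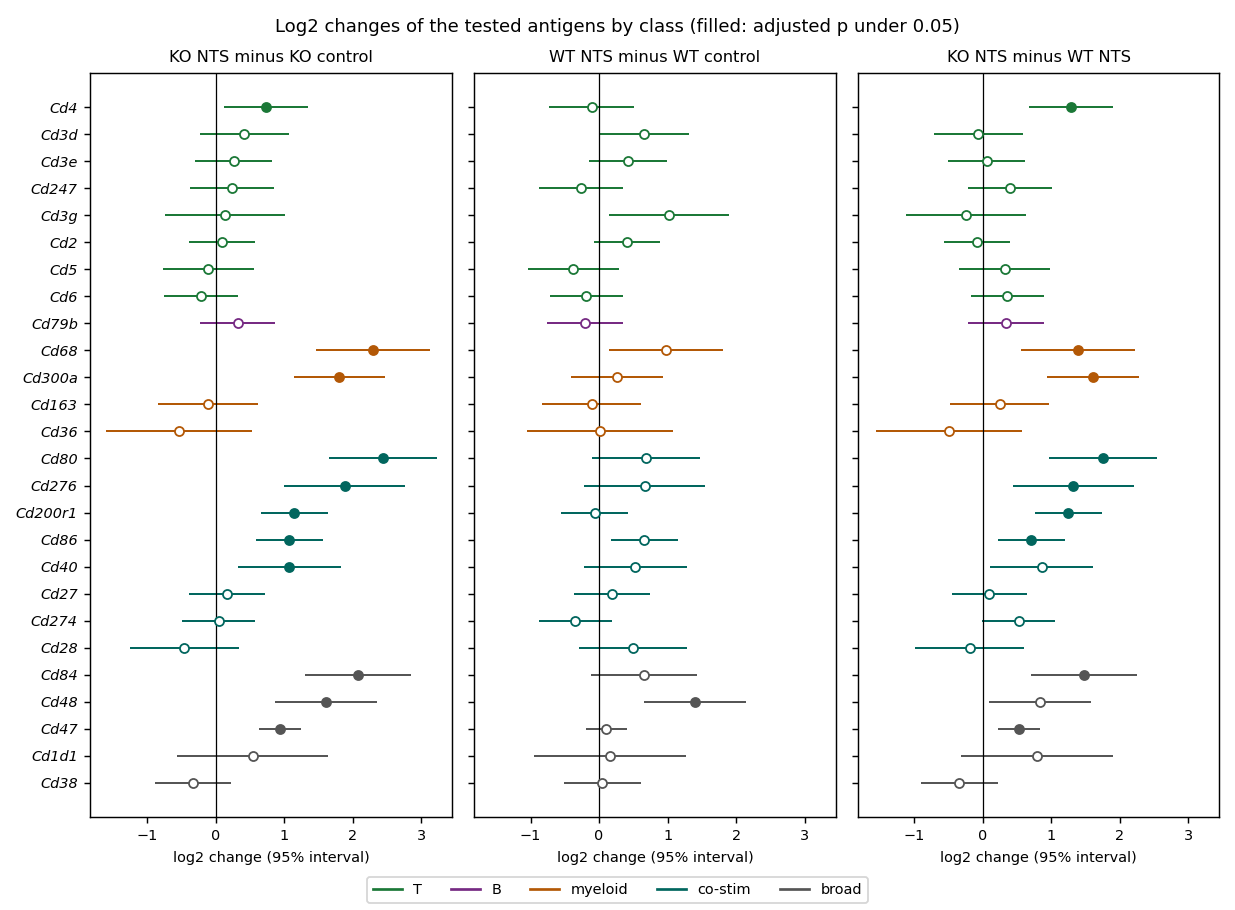
Log2 change of the 26 tested antigens (horizontal axis, log2 of signal + 1, with 95% intervals) for KO NTS minus KO control, WT NTS minus WT control and KO NTS minus WT NTS, coloured by class, with filled points where the limma adjusted p was under 0.05. In the first panel the 11 filled points lie between 0.74 and 2.44, and only 1 of them, Cd4, is a T cell antigen.

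Of the 8 tested members of the co-stimulatory class, 5 were higher in KO NTS than in KO control kidneys (62.5%, against 39.6% of the panel). Against WT NTS kidneys, 4 were higher in KO NTS (50%, against 31.2%). Both counts and the medians that follow include Cd200r1, which passed the filter through its KO NTS samples alone. The class had a median log2 change of 1.08 after serum in KO kidneys and of 0.51 in WT kidneys, against 0.42 and 0.08 over all genes tested. With median centring the KO median was 0.30, with 2 members higher and 2 lower (Cd274 and Cd28). With quantile normalization it was 0.19, with 3 higher and the same 2 lower. Both scalings also called more panel genes lower than higher between KO NTS and KO control. Against WT NTS kidneys the class had 2 members higher and 0 lower with either scaling. Its summed signal over 10 genes was 676 to 793 in KO NTS, 305 to 534 in WT NTS, 380 to 399 in KO control and 296 to 370 in WT control samples.

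Cd80, which encodes a ligand (B7-1) of CD28 and CTLA-4 on antigen-presenting cells, had the largest change among the antigens. Its signal was 129, 126 and 142 in KO NTS kidneys, 71.8, 21.9 and 35.9 in WT NTS kidneys, 18.6, 30.3 and 22.9 in KO control kidneys, and 26.8, 22.2 and 22.0 in WT control kidneys. All KO NTS samples lay above all 9 other samples, and WT NTS 1 stood above its group while WT NTS 2 lay among the untreated samples. The log2 difference was 2.44 between KO NTS and KO control (5.44-fold, SE 0.35, adjusted p = 0.000244, n = 3 per group). Between KO NTS and WT NTS it was 1.75 (3.37-fold, SE 0.35, adjusted p = 0.00577). In WT kidneys the log2 change after serum was 0.69 (95% interval -0.08 to 1.45, adjusted p = 0.285).

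Cd86, which encodes the second CD28 ligand (B7-2), had a signal of 138, 137 and 127 in KO NTS, 97.1, 63.6 and 87.3 in WT NTS, 75.5, 58.4 and 56.2 in KO control, and 51.6, 55.0 and 47.1 in WT control kidneys. Again all KO NTS samples lay above all others, and the WT NTS samples lay above the WT controls without overlap but overlapped the KO controls. KO NTS exceeded KO control by 1.08 on the log2 scale (SE 0.22, adjusted p = 0.00164) and WT NTS by 0.71 (SE 0.22, adjusted p = 0.0252). The WT change was 0.66 (95% interval 0.19 to 1.13, adjusted p = 0.0916). The difference from WT NTS missed the threshold without KO NTS 1, 2 or 3 or without WT NTS 2 or 3 (adjusted p = 0.0764, 0.0626, 0.061, 0.0918 and 0.0557), and the WT change passed without WT NTS 2 (0.84, adjusted p = 0.0404).

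Cd276 (B7-H3), a B7 family member whose receptor is not settled, was at 64.9, 56.1 and 113 in KO NTS, 57.3, 17.7 and 24.3 in WT NTS, 19.7, 23.8 and 15.6 in KO control, and 22.0, 18.3 and 14.7 in WT control kidneys. WT NTS 1 fell within the KO NTS range, and the other WT NTS samples fell among or just above the untreated ones. KO NTS was higher than KO control (log2 difference 1.89, SE 0.40, adjusted p = 0.00215) and than WT NTS (1.32, SE 0.40, adjusted p = 0.0238). The difference from WT NTS missed the threshold without KO NTS 3 (adjusted p = 0.107), WT NTS 2 (0.105) or WT NTS 3 (0.0898).

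Cd40, the receptor through which T cells activate B cells and macrophages, was at 99.3, 130 and 157 in KO NTS, 120, 43.8 and 63.0 in WT NTS, 48.2, 69.3 and 63.4 in KO control, and 42.0, 57.9 and 45.03 in WT control kidneys. No KO NTS sample overlapped the untreated ones, and WT NTS 1 lay inside the KO NTS range. KO NTS was higher than KO control by 1.07 (log2, SE 0.34, adjusted p = 0.0198), a call lost without KO NTS 3 (0.92, adjusted p = 0.0803) or KO control 1 (0.92, adjusted p = 0.0779). Against WT NTS the log2 difference was 0.86 (adjusted p = 0.0694), and without WT NTS 1 it was 1.25 (adjusted p = 0.00325).

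Cd200r1, an inhibitory receptor of myeloid cells for CD200, was at 37.4, 29.2 and 33.6 in KO NTS, 17.5, 10.0 and 13.6 in WT NTS, 14.2, 14.8 and 14.2 in KO control, and 15.1, 14.7 and 12.4 in WT control kidneys. All 3 WT controls, 2 KO controls and WT NTS 2 were at the floor, and outside KO NTS only WT NTS 1 lay well above it. The log2 difference was 1.15 from KO control (SE 0.22, adjusted p = 0.00106) and 1.25 from WT NTS (SE 0.22, adjusted p = 0.005), and the floor makes the size of both uncertain. Cd200r1 was tested only through the KO NTS samples, in which it is high, so these p-values are a description and not support. With no filter, over 770 genes, the adjusted p values were 0.000445 and 0.00347. Without Cd200r1 the calls were 10 of 25 antigens against KO control and 8 of 25 against WT NTS.

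The inhibitory ligand gene Cd274 showed no such pattern. Its signal was 128, 111 and 142 in KO NTS, 96.1, 70.9 and 98.9 in WT NTS, 148, 96.3 and 129 in KO control, and 130, 121 and 89.0 in WT control kidneys. The KO NTS samples lay above the WT NTS samples and among the untreated ones. The log2 difference was 0.52 from WT NTS (95% interval 0.00 to 1.04, adjusted p = 0.109) and 0.05 from KO control (-0.47 to 0.56, adjusted p = 0.898). The WT change was -0.35 (-0.86 to 0.17, adjusted p = 0.416).

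The tested T cell partners of such ligands, Cd28 and Cd27, were not called in either KO NTS comparison. Cd28, the receptor for CD80 and CD86, was at 24.6, 36.7 and 15.3 in KO NTS, 25.2, 21.9 and 37.8 in WT NTS, 30.7, 46.5 and 25.99 in KO control, and 16.2, 28.0 and 15.7 in WT control kidneys. The groups overlapped throughout, with a log2 difference of -0.46 between KO NTS and KO control (95% interval -1.23 to 0.32, adjusted p = 0.315) and of -0.19 between KO NTS and WT NTS (-0.97 to 0.59, adjusted p = 0.702). Cd27, the receptor for CD70 on lymphocytes, averaged 22.7 ± 4.09 in KO NTS, 21.3 ± 5.10 in WT NTS, 19.96 ± 2.79 in KO control kidneys and 18.7 ± 4.79 in WT control kidneys (SD, n = 3 each), with log2 differences of 0.17 from KO control and 0.10 from WT NTS.

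Cd40lg, the CD40 ligand gene, was not tested for lack of signal. It was at 13.9, 12.9 and 15.1 in KO NTS, 11.3, 13.6 and 12.4 in WT NTS, 12.5, 14.8 and 15.6 in KO control, and 15.1, 14.7 and 20.9 in WT control kidneys. All 3 KO NTS samples were at the floor, and only 1 sample in each of the other groups rose above it. Cd70, the ligand of CD27, also missed the filter, at 22.6, 19.4 and 21.1 in KO NTS, 18.4, 14.6 and 17.5 in WT NTS, 12.5, 14.8 and 14.2 in KO control, and 15.1, 14.7 and 12.4 in WT control kidneys. It was above the floor in all 6 serum-treated samples and at the floor in all 6 untreated ones. With no filter, over 770 genes, the log2 difference between KO NTS and KO control was 0.57 (SE 0.14, adjusted p = 0.00553) and that between KO NTS and WT NTS 0.31 (adjusted p = 0.102), both of uncertain size because of the floor.

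**Figure D2:**
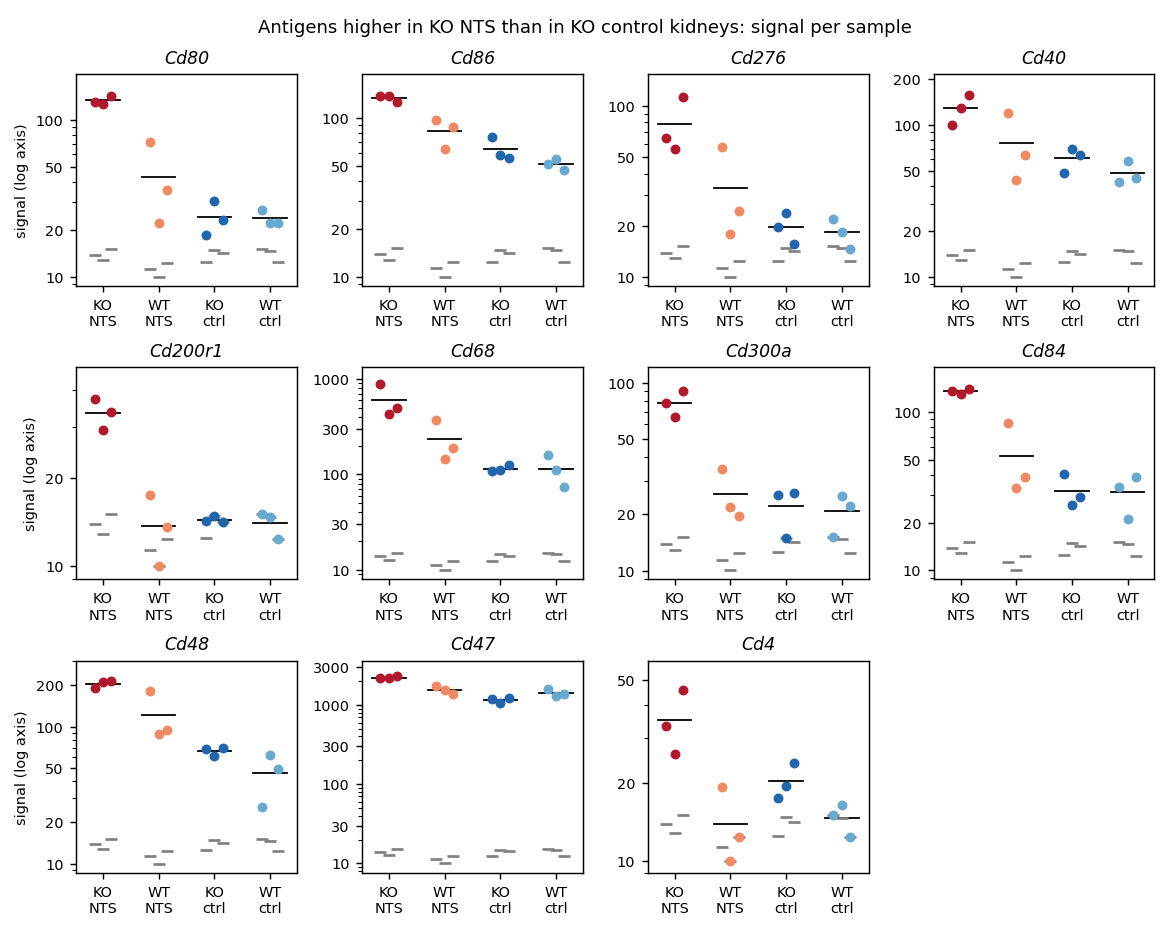
Signal per sample (vertical log axis) of the 11 antigens higher in KO NTS than in KO control kidneys, with the group mean as a black line and each sample's background floor as a grey dash. KO NTS samples stand above both untreated groups in all panels, and the first WT NTS point is the highest of its group in all 11. That sample also had the highest median gene of its group over the whole panel.

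Of 4 tested myeloid antigens, 0 passed in WT kidneys. In KO NTS 2 of the 4, Cd68 and Cd300a, were higher than in KO control and than in WT NTS kidneys. That share of 50% stood against 39.6% (KO control) and 31.2% (WT NTS) of the panel. The class had median log2 differences of 0.85 and 0.82 in those comparisons, against 0.42 and 0.45 over all genes tested. Against KO control that median was 0.08 with median centring and 0.18 with quantile normalization, with Cd68 and Cd300a still called. Against WT NTS it was 0.23 with median centring, where only Cd300a was called, and 0.29 with quantile normalization, where 0 were called. Cd68, a lysosomal glycoprotein used to mark macrophages, was at 875, 432 and 489 in KO NTS, 370, 146 and 187 in WT NTS, 108, 110 and 126 in KO control, and 159, 112 and 73.3 in WT control kidneys. All KO NTS samples lay above the rest, WT NTS 1 came nearest to them, and WT NTS 2 lay within the WT control range. KO NTS was higher by 2.30 on the log2 scale than KO control (4.94-fold, SE 0.38, adjusted p = 0.00045) and by 1.39 than WT NTS (2.63-fold, SE 0.38, adjusted p = 0.0151). The comparison with WT NTS missed the threshold without KO NTS 1 (adjusted p = 0.0665), WT NTS 2 (0.072) or WT NTS 3 (0.0585). In WT kidneys the log2 change was 0.98 (95% interval 0.16 to 1.80, adjusted p = 0.144).

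Cd300a, an inhibitory receptor of myeloid and some lymphoid cells, was at 77.7, 65.9 and 90.1 in KO NTS, 34.9, 21.9 and 19.4 in WT NTS, 25.2, 14.8 and 25.99 in KO control, and 15.1, 25.1 and 22.0 in WT control kidneys. Each KO NTS sample again stood above all others, and the WT NTS samples overlapped both untreated groups. The log2 difference was 1.81 from KO control (SE 0.30, adjusted p = 0.000511) and 1.61 from WT NTS (SE 0.30, adjusted p = 0.005).

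Other macrophage antigens differed from Cd68. Cd163, the scavenger receptor for haemoglobin-haptoglobin complexes, was at 31.5, 42.1 and 17.3 in KO NTS, 18.4, 20.9 and 34.9 in WT NTS, 27.4, 29.2 and 36.4 in KO control, and 27.7, 28.0 and 22.0 in WT control kidneys. These groups overlapped, with log2 differences of -0.11 from KO control (95% interval -0.82 to 0.60, adjusted p = 0.822) and 0.25 from WT NTS (-0.46 to 0.96, adjusted p = 0.578). Cd36, a fatty acid and lipoprotein receptor that endothelial and tubular cells also carry, spread widely after serum, at 1739 to 6662 in KO NTS and 2633 to 9757 in WT NTS, against 4012 to 5996 in KO control and 4079 to 5408 in WT control kidneys. Its log2 difference between KO NTS and KO control was -0.53 (95% interval -1.58 to 0.52). Cd209e, a C-type lectin gene of the DC-SIGN cluster, was at the floor in all 3 KO NTS and all 3 WT control samples and reached 21.4 at most.

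The promoters of the called antigens were read to show the sequence next to genes that moved together. The RefSeq promoter table (GRCm38.p6) held the 250 bases before a transcript start for 7 of the 11 called genes and 10 of the other tested antigens. For Cd80, Cd300a, Cd48 and Cd47 that start lies downstream of the first base of the RefSeq gene, so the window precedes a later start within the gene. The box GAGGAA, the core bound by the myeloid factor PU.1, was searched on both strands. It occurred in 3 of the 7 (Cd68, Cd300a and Cd276), in 3 of the 10 (Cd3d, Cd3e and Cd5), and in 23.3% of 32851 promoters of that length. A core motif of interferon response elements occurred in 0 of the 7 and 0 of the 10, and in 2.98% of all promoters, and the NF-kB consensus in 1 of the 7 (Cd300a) and 0 of the 10, and in 7.25%. Cd68, Cd300a and Cd80 are shown because they were the called myeloid antigens and the antigen with the largest change, and capitals mark GAGGAA or its reverse complement TTCCTC, which is absent from the window of Cd80. A match of letters is a description of the window and no evidence that the factor binds there. The windows are chr11:69666171-69666420 on the minus strand for Cd68, chr11:114889791-114890040 on the plus strand for Cd300a and chr16:38458683-38458932 on the plus strand for Cd80, each read 5′ to 3′ along its gene. The RefSeq genes begin at 38457430 for Cd80 and 114889152 for Cd300a.
Cd68: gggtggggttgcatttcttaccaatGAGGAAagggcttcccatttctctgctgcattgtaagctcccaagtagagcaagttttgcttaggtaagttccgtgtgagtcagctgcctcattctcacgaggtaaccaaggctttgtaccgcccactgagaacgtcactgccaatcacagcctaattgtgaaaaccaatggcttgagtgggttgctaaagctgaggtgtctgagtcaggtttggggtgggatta
Cd300a: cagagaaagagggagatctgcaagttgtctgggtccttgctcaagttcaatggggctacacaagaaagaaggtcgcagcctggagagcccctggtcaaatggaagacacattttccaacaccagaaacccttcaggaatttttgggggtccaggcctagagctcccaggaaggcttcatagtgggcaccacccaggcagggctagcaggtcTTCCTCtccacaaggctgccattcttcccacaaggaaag
Cd80: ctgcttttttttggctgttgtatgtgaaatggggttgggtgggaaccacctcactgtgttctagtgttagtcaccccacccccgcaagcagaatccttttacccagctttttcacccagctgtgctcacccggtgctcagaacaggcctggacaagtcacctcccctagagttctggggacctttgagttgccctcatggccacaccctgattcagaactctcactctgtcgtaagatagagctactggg

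Of 5 tested broader antigens, 3 were higher in KO NTS than in KO control kidneys (60%, against 39.6% of the panel). Against WT NTS kidneys, 2 were higher in KO NTS (40%, against 31.2%). Cd84 and Cd48 belong to the SLAM family of receptors between leukocytes. Cd84 was at 137, 131 and 140 in KO NTS, 85.4, 33.4 and 38.8 in WT NTS, 40.5, 25.97 and 29.1 in KO control, and 33.4, 21.2 and 38.7 in WT control kidneys. KO NTS samples were close to each other and above all others, and WT NTS 2 and 3 lay among the untreated samples or at their upper edge. The log2 difference was 2.08 from KO control (4.23-fold, SE 0.35, adjusted p = 0.000512) and 1.48 from WT NTS (2.79-fold, SE 0.35, adjusted p = 0.00784).

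Cd48, a SLAM family antigen of most leukocytes, was the 1 antigen called in both genotypes. It was at 190, 211 and 216 in KO NTS, 182, 87.6 and 94.1 in WT NTS, 69.0, 60.6 and 69.7 in KO control, and 25.8, 61.7 and 49.2 in WT control kidneys. All 6 serum-treated samples lay above all 6 untreated ones, and WT NTS 1 came close to the KO NTS samples. The log2 change was 1.61 in KO kidneys (SE 0.33, adjusted p = 0.00195) and 1.40 in WT kidneys (SE 0.33, adjusted p = 0.03). The WT call was lost without WT NTS 1 (1.07, adjusted p = 0.0738), WT control 1 (1.04, adjusted p = 0.0889), WT control 3 (adjusted p = 0.0863), KO control 1 (adjusted p = 0.0501) or KO control 2 (adjusted p = 0.0506), and with only these groups in the fit (adjusted p = 0.194). Between KO NTS and WT NTS the log2 difference was 0.83 (adjusted p = 0.074), and it passed without WT NTS 1 (1.17, adjusted p = 0.00848) or WT control 1 (0.83, adjusted p = 0.0336).

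Cd47, the widely expressed ligand of SIRPα that restrains phagocytosis, was at 2168, 2168 and 2292 in KO NTS, 1715, 1532 and 1368 in WT NTS, 1188, 1058 and 1215 in KO control, and 1590, 1302 and 1390 in WT control kidneys. KO NTS samples lay above all others, the KO controls lay below the WT controls, and the WT NTS samples overlapped the WT controls. KO NTS was higher than KO control by 0.94 on the log2 scale (1.92-fold, SE 0.13, adjusted p = 0.000244) and than WT NTS by 0.53 (1.44-fold, SE 0.13, adjusted p = 0.0108), a call lost without WT NTS 3 (0.45, adjusted p = 0.0542). In untreated kidneys its difference was -0.30 (95% interval -0.59 to -0.01, adjusted p = 0.575), the smallest adjusted p among the antigens there.

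Cd1d1, which presents lipids to natural killer T cells, averaged 143 ± 22.4 in KO NTS, 101 ± 64.1 in WT NTS, 97.6 ± 13.7 in KO control kidneys and 76.6 ± 27.3 in WT control kidneys (SD, n = 3 each). WT NTS 2, at 29.2, was the lowest of the 12 samples, and the log2 difference between KO NTS and KO control was 0.54 (95% interval -0.55 to 1.63, adjusted p = 0.4). Cd38, an enzyme that consumes NAD, averaged 228 ± 47.5 in KO NTS, 285 ± 30.9 in WT NTS, 288 ± 71.4 in KO control kidneys and 281 ± 68.8 in WT control kidneys, with log2 differences of -0.33 from KO control and -0.34 from WT NTS. Cd69, an antigen of freshly activated lymphocytes, was above the floor only in KO NTS 1 and KO NTS 3, at 18.7 and 24.9, and with no filter its log2 difference between KO NTS and WT NTS was 0.66 (SE 0.19, adjusted p = 0.0246), of uncertain size because of the floor.

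Among T cell antigens, 1 of 8 tested, Cd4, was higher in KO NTS than in KO control and than in WT NTS kidneys. That share of 12.5% stood against 39.6% (KO control) and 31.2% (WT NTS) of the panel. Cd4 met the filter only with its KO NTS samples, in which it is high, and the other 7 tested antigens were not called. In WT kidneys 0 of 8 passed. The class had a median log2 difference of 0.19 in each of the 2 KO NTS comparisons, against 0.42 and 0.45 over all genes tested. With median centring these medians turned to -0.59 (against KO control) and -0.41 (against WT NTS), and with quantile normalization to -0.33 and -0.19. Its summed signal over 12 genes was 232 to 304 in KO NTS, 191 to 286 in WT NTS, 225 to 247 in KO control and 181 to 241 in WT control samples, so all groups overlapped. The floor itself differed between groups, which matters for genes this low. Cd96, an adhesion receptor of T and NK cells, was at the floor in all 12 samples and had a log2 difference of 0.29 between KO NTS and WT NTS, of 0.01 between KO NTS and KO control and of -0.30 between WT NTS and WT control.

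Cd4, the MHC class II co-receptor of helper T cells, is also made by some mouse dendritic cells. It was at 33.4, 25.9 and 46.0 in KO NTS, 19.4, 10.0 and 12.4 in WT NTS, 17.5, 19.5 and 23.9 in KO control, and 15.1, 16.4 and 12.4 in WT control kidneys. The KO NTS samples lay above all others, and WT NTS 2 and 3 and 2 WT controls were at the floor. The log2 difference between KO NTS and WT NTS was 1.29 (2.44-fold, SE 0.28, adjusted p = 0.00634), beside 0.29 for the floor-level Cd96. Cd4 met the filter through its KO NTS samples, in which it is high, and 1 KO control. Its p-values are therefore a description and not support. With no filter the adjusted p was 0.00642 against WT NTS and 0.0338 against KO control. Against KO control the log2 difference of KO NTS was 0.74 (SE 0.28, adjusted p = 0.0445). Leaving out any 1 of 8 samples gave an adjusted p above 0.05, from 0.0513 without WT control 2 to 0.185 without KO NTS 3. The others of these 8 were KO NTS 1 (0.0865), WT NTS 3 (0.0544), KO control 1 (0.129), KO control 2 (0.104), WT control 1 (0.0541) and WT control 3 (0.0535). The call against KO control was also lost with a replicate block (adjusted p = 0.0592).

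The CD3 chains, which carry the T cell receptor signal, were not called in either KO NTS comparison, and their difference from Cd4 was not tested. Cd3d was at 27.5, 25.9 and 26.9 in KO NTS, 42.7, 18.8 and 27.2 in WT NTS, 25.2, 19.5 and 15.6 in KO control, and 15.1, 22.2 and 15.7 in WT control kidneys. Cd3e was at 22.6, 21.6 and 20.1 in KO NTS, 30.1, 15.6 and 18.4 in WT NTS, 19.7, 14.8 and 18.7 in KO control, and 15.1, 18.3 and 12.4 in WT control kidneys. For both genes the KO NTS samples lay just above the KO controls and within the WT NTS range, where WT NTS 1 was the highest of all samples. Their log2 differences between KO NTS and KO control were 0.42 (95% interval -0.21 to 1.06, adjusted p = 0.254) and 0.27 (-0.28 to 0.82, adjusted p = 0.407). Between KO NTS and WT NTS they were -0.06 (-0.70 to 0.57) and 0.06 (-0.49 to 0.60).

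Cd3g was at 45.2, 19.4 and 42.2 in KO NTS, 58.2, 28.2 and 37.8 in WT NTS, 32.9, 30.3 and 28.1 in KO control, and 15.1, 32.8 and 13.6 in WT control kidneys. WT NTS 1 was again the highest sample, and WT control 2 lay with the KO controls, apart from the other WT controls. The WT change was 1.03 on the log2 scale (95% interval 0.17 to 1.88, adjusted p = 0.144), and it passed only when WT control 2 was left out (1.40, adjusted p = 0.0376). The differences of KO NTS were 0.14 from KO control and -0.24 from WT NTS.

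Cd247, the zeta chain of the receptor, was at 13.9, 25.9 and 20.1 in KO NTS, 16.5, 14.6 and 12.6 in WT NTS, 14.2, 19.5 and 15.6 in KO control, and 22.9, 19.3 and 12.4 in WT control kidneys. The groups overlapped, with a log2 difference of 0.40 between KO NTS and WT NTS (95% interval -0.20 to 0.99, adjusted p = 0.277). Cd8a, a chain of the MHC class I co-receptor, was at 14.8, 17.3 and 20.1 in KO NTS, 11.3, 10.0 and 17.5 in WT NTS, 15.3, 18.4 and 14.2 in KO control, and 15.1, 15.4 and 13.6 in WT control kidneys. Its partner Cd8b1 was at 13.9, 12.9 and 16.3 in KO NTS, 11.3, 15.6 and 12.4 in WT NTS, 15.3, 14.8 and 14.2 in KO control, and 15.1, 17.4 and 13.6 in WT control kidneys. Both CD8 chains were within a few units of the floor in every sample, and neither was tested.

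The remaining T cell antigens are adhesion and inhibitory receptors of the T cell surface. Cd2, an adhesion receptor that binds CD48 in mice, averaged 38.3 ± 6.96 in KO NTS, 40.3 ± 3.61 in WT NTS, 35.4 ± 2.61 in KO control kidneys and 30.5 ± 4.88 in WT control kidneys (SD, n = 3 each). Its WT NTS samples lay above the WT controls, with a log2 change of 0.40 (95% interval -0.07 to 0.87, adjusted p = 0.299), and KO NTS differed from KO control by 0.10 (-0.37 to 0.56). Cd5 averaged 20.4 ± 7.98 in KO NTS, 15.8 ± 4.46 in WT NTS, 21.1 ± 3.31 in KO control kidneys and 20.5 ± 4.11 in WT control kidneys. Cd6 averaged 16.2 ± 4.005 in KO NTS, 12.3 ± 2.27 in WT NTS, 18.9 ± 4.13 in KO control kidneys and 14.1 ± 1.46 in WT control kidneys, and it was at the floor in 2 KO NTS, 2 WT NTS, 1 KO control and all WT control samples. Cd5 and Cd6, which dampen receptor signalling, had log2 differences of -0.10 and -0.21 between KO NTS and KO control and of 0.32 and 0.36 between KO NTS and WT NTS, with adjusted p values from 0.259 to 0.817. Cd7 was at the floor in 11 of 12 samples.

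Among the B cell antigens, 1 of 3 was tested. Cd79b, a signalling chain of the B cell receptor, was at 40.3, 43.2 and 43.2 in KO NTS, 32.0, 34.4 and 33.0 in WT NTS, 41.6, 27.1 and 33.3 in KO control, and 47.8, 43.4 and 27.2 in WT control kidneys. The KO NTS samples lay above the WT NTS samples and within the range of the untreated ones. The log2 difference was 0.34 from WT NTS (95% interval -0.19 to 0.87, adjusted p = 0.296) and 0.33 from KO control (-0.21 to 0.86, adjusted p = 0.297). Cd79a, the partner chain of Cd79b, was at 13.9, 12.9 and 15.1 in KO NTS, 11.3, 11.5 and 12.4 in WT NTS, 12.5, 14.8 and 14.2 in KO control, and 15.1, 14.7 and 12.4 in WT control kidneys, which was the floor in all but WT NTS 2.

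**Figure D3:**
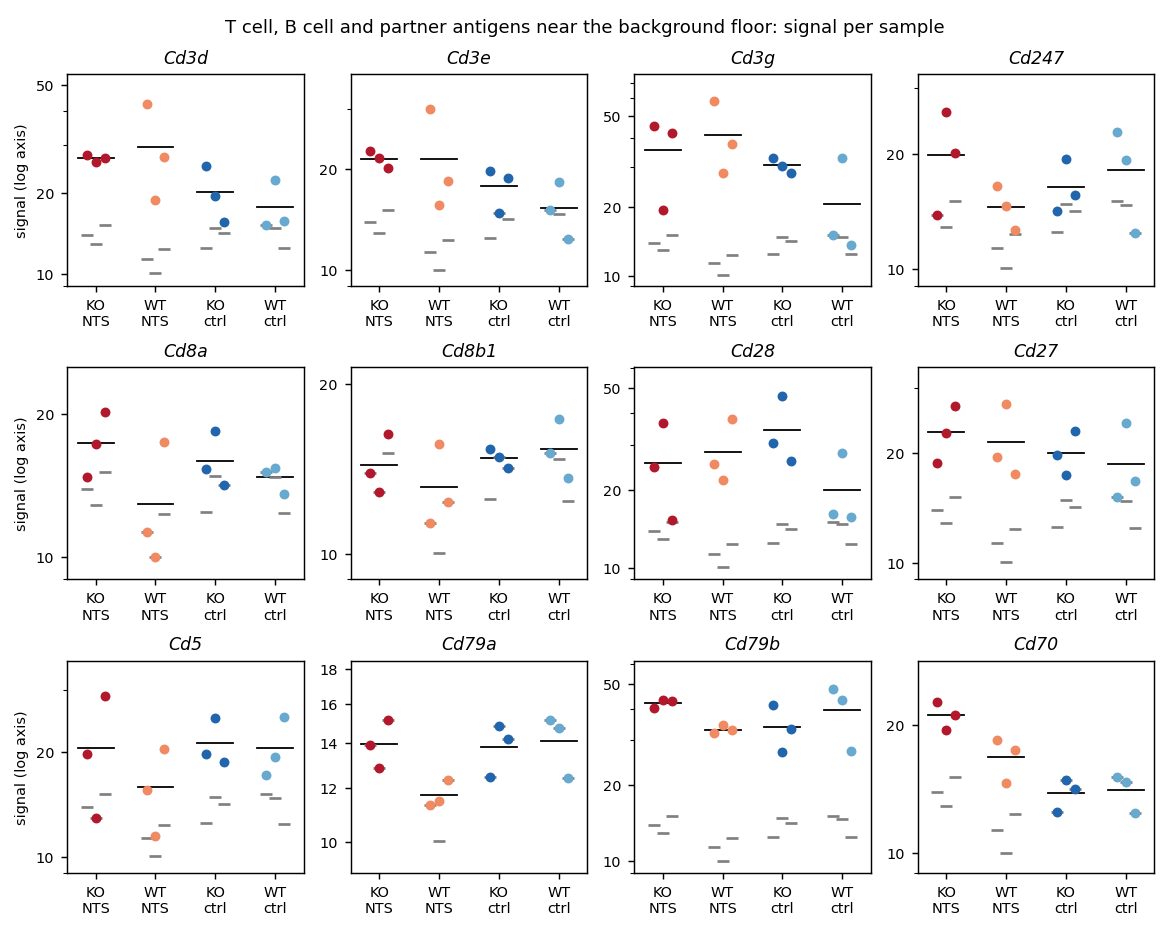
Signal per sample (vertical log axis) of T cell and B cell antigens and of Cd28, Cd27 and Cd70, with the group mean as a black line and each sample's background floor as a grey dash. Many points lie on or within a few units of their own floor, and the WT NTS floors are the lowest.

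The change after serum itself differed between genotypes for 4 of 26 antigens, all larger in KO kidneys (15.4%, against 9.6% of the panel larger and 0.739% smaller). These were Cd80 (log2 interaction 1.76, SE 0.50, adjusted p = 0.046), Cd300a (1.54, SE 0.42, adjusted p = 0.0435), Cd200r1 (1.22, SE 0.30, adjusted p = 0.0356) and Cd47 (0.83, SE 0.19, adjusted p = 0.0351). Cd200r1 entered the test only through KO NTS, and without it 3 of 25 were called. For Cd4, Cd84 and Cd68 the interaction was 0.84, 1.43 and 1.32 (adjusted p = 0.178, 0.0795 and 0.125). Without WT NTS 1 it passed for Cd4 (1.09, adjusted p = 0.0379), Cd84 (1.84, adjusted p = 0.00469), Cd68 (1.71, adjusted p = 0.0169) and Cd276 (1.70, adjusted p = 0.0138). Cd84 also passed without WT control 2 (1.67, adjusted p = 0.0455), where Cd80 (adjusted p = 0.0523) and Cd300a (0.0635) missed. The count of 4 became 8 without WT NTS 1, 7 without WT NTS 1 and WT control 2 together, 2 without KO NTS 2, and 0 without KO NTS 1, KO NTS 3, WT NTS 2, WT NTS 3, any 1 KO control, WT control 1 or WT control 3. With samples centred on their median gene, with quantile normalization and with scaling on the positive controls it was 0. WT NTS 1 was the highest WT NTS sample for all 11 antigens called in KO kidneys and for 7 of the other 15 tested.

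Genes of the same cell types that carry no CD number were set beside the antigens. Of 23 tested myeloid genes, 16 were higher in KO NTS than in KO control and 15 than in WT NTS kidneys, with 0 lower. These shares of 69.6% and 65.2% stood against 39.6% and 31.2% of the panel. The myeloid genes summed to 6910 to 8233 in KO NTS, 2625 to 5139 in WT NTS, 3013 to 3269 in KO control and 1947 to 3377 in WT control samples. Siglec1, a sialic acid receptor of macrophages, and Itgam, the integrin chain CD11b, were higher in KO NTS than in WT NTS by 2.03 and 2.27 on the log2 scale (adjusted p = 0.005 for both). Siglec1, Itgax and Csf3r, among the 23 tested, met the filter only with their KO NTS samples. The p-value of Siglec1 is therefore a description and not support. Of 15 tested co-signalling genes, 7 were higher in KO NTS in each of these comparisons and 0 lower. That share of 46.7% was near the panel's 39.6% against KO control and stood against 31.2% for WT NTS. The checkpoint genes Vsir (1.27, adjusted p = 0.005) and Btla (1.42, adjusted p = 0.00577) were above WT NTS.

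Of 13 tested T cell genes, 1 (7.69%, against 39.6% and 31.2% of the panel) was higher in KO NTS in each comparison and 0 lower. This was Thy1, which stromal cells also express (log2 difference 1.19 from WT NTS, adjusted p = 0.0435), and the next smallest p belonged to Nfatc2 (0.70, adjusted p = 0.109). Of 3 tested B cell genes, 0 passed: Ms4a1, which encodes CD20, had a log2 difference of -0.26 from WT NTS (adjusted p = 0.355) and Cxcr5 of -0.14 (adjusted p = 0.62). Ms4a1 averaged 24.1 ± 1.66 in KO NTS, 29.1 ± 1.98 in WT NTS, 35.1 ± 8.13 in KO control kidneys and 28.4 ± 3.83 in WT control kidneys (SD, n = 3 each), with every KO NTS sample below every WT NTS sample. Of the genes shared by all leukocytes, Ptprc (CD45) averaged 482 ± 104 in KO NTS, 271 ± 139 in WT NTS, 207 ± 11.6 in KO control kidneys and 136 ± 74.6 in WT control kidneys. Ptprc was higher in KO NTS than in KO control (log2 difference 1.20, adjusted p = 0.0229) and missed the threshold against WT NTS (0.94, adjusted p = 0.083), while the integrin genes Itgb2 (1.56, adjusted p = 0.005) and Itgal (0.94, adjusted p = 0.0482) passed there.

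Markers of other cells moved in the same comparisons, and their part in the antigens' differences was not tested. Between KO NTS and KO control, 5 of 5 nephron genes and 1 of 6 endothelial genes were lower, and 4 of 4 stromal genes, 7 of 8 genes of dividing cells, 3 of 4 neutrophil, 2 of 2 platelet and 1 of 5 NK and cytotoxic genes were higher. On the whole panel 39.6% of tested genes were higher and 8.57% lower there, and between KO NTS and WT NTS 31.2% and 2.36%. The neutrophil list summed to 272 to 373 in KO NTS, 138 to 276 in WT NTS, 108 to 185 in KO control and 115 to 198 in WT control samples. Between KO NTS and WT NTS, of 4 stromal genes, 4 were higher, with Pdgfrb and Thbs1 at log2 differences of 1.29 and 1.30, and the list summed to 1943 to 2565 in KO NTS, 673 to 1305 in WT NTS, 916 to 1108 in KO control and 909 to 1012 in WT control samples. Of 5 nephron genes, 2 were lower, Egf (-2.58) and Fbp1 (-1.39), and the list summed to 13362 to 24596 in KO NTS, 42455 to 63256 in WT NTS, 76261 to 84710 in KO control and 53927 to 88745 in WT control samples. Of 6 endothelial genes, 1 was higher (Cdh5, 0.42) and 1 lower (Kdr, -0.90). Of 8 genes of dividing cells, 1 was higher (Ccne1, 0.92; Exo1 at 0.55 missed), and of 2 platelet genes, 1 (Itgb3, 1.49; Pf4 at 0.84 missed). Neutrophil genes passed in 0 of 4 cases (S100a8 at 0.84 and S100a9 at 0.82, adjusted p = 0.134 and 0.199). NK and cytotoxic genes passed in 0 of 5 (Klrd1 at 0.41 and Nkg7 at 0.58, adjusted p = 0.155 and 0.32).

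The direction of the smaller antigen changes depended on the scaling, which also moved the panel as a whole. The median log2 change of all tested genes between KO NTS and KO control was 0.42 as deposited, 0.43 on the most stable housekeeping genes, 0.62 on the positive controls, -0.19 with quantile normalization and -0.35 with median centring. With median centring 6 antigens were higher and 7 lower (Cd2, Cd274, Cd28, Cd38, Cd3e, Cd5 and Cd6). Of the 677 genes tested, that scaling called 134 higher but 269 lower between KO NTS and KO control. Quantile normalization left 8 antigens higher and 4 lower, where the panel had 159 higher but 214 lower. Lower calls under these scalings were therefore common on the whole panel. Against KO control, 10 of the 26 antigens changed direction in KO NTS kidneys with median centring (Cd1d1, Cd2, Cd247, Cd27, Cd274, Cd3d, Cd3e, Cd3g, Cd4 and Cd79b) and 9 with quantile normalization (the same without Cd4). Under all 5 scalings, 6 of the 11 antigens remained called higher than KO control: Cd80, Cd68, Cd84, Cd276, Cd300a and Cd48. Against WT NTS, 3 of the 9 did: Cd80, Cd200r1 and Cd4, of which Cd200r1 was tested through KO NTS alone and Cd4 through KO NTS and 1 KO control.

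**Figure D4:**
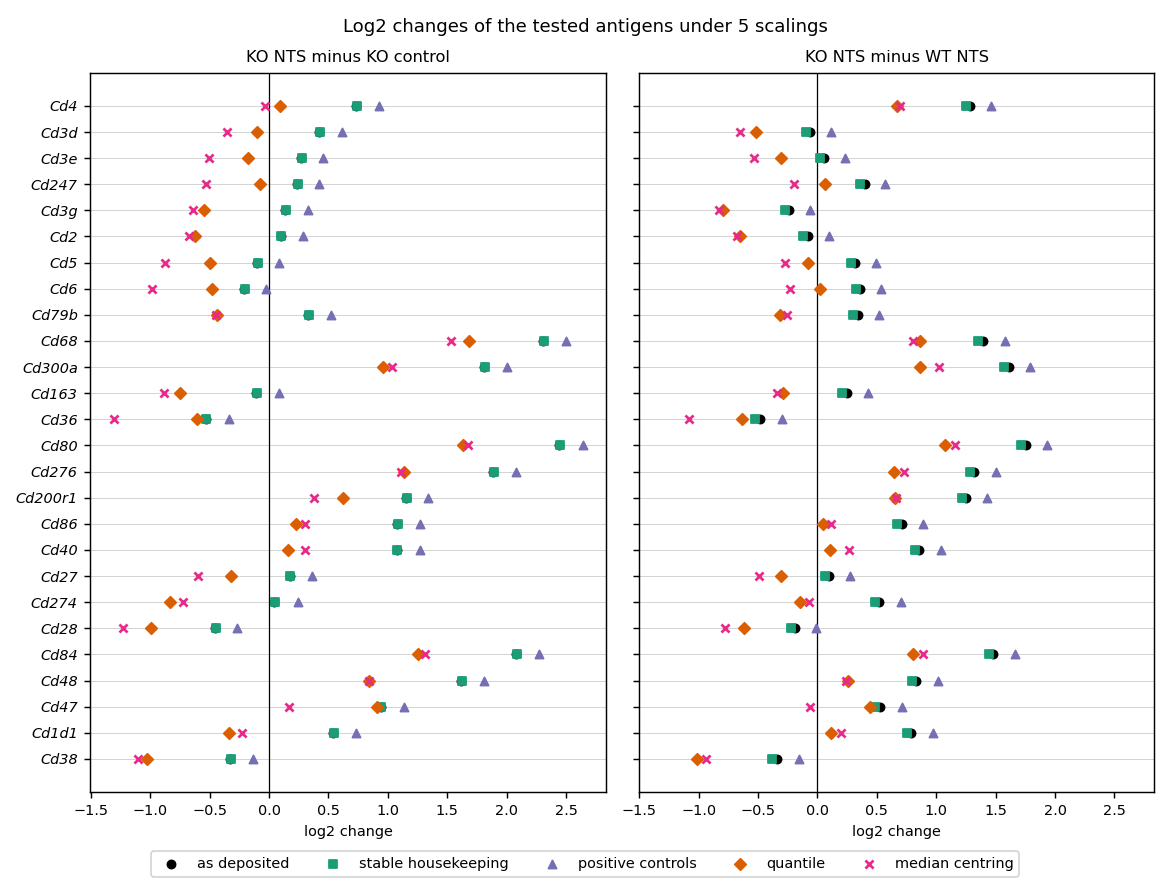
Log2 change of the 26 tested antigens (horizontal axis) for KO NTS minus KO control and KO NTS minus WT NTS under 5 scalings, marked by symbol. Median centring and quantile normalization shift the points to the left, and with median centring all T cell antigens lie below 0 in the first panel, Cd4 by the least, while Cd80, Cd68 and Cd84 stay well above it.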

How the data were processed

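Kidney RNA of 12 mice was measured on a panel of hybridized probes, and the authors deposited a normalized signal for each gene, not on a log scale. Per the file headers, rows are 750 endogenous genes, 20 housekeeping genes, 8 negative and 6 positive controls. Housekeeping genes had a geometric mean of 380.1 in all samples but KO control 3 (384.2). Each sample's values over its floor moved in whole steps (0.955 to 1.09 units), as probe counts scaled by a factor would; they are no raw counts, and the count model planned for raw counts was not run. The other deposited table was identical (largest difference 0). A deposited percent of samples above a threshold was not used. The instrument, software and run of each sample are not given in the sources used here. Nothing in the labels ties a sample to a batch.

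Groups came from the sample titles, and 3 animals per group were taken as separate mice, as the design text states. Limma 3.58.1 in R 4.3.3 was fitted to log2(signal + 1) of all 12 samples, with 1 mean per group and a variance trend. A gene was tested where 3 or more samples reached a signal of 20 (677 of 770). Two-sided p-values were adjusted over all tested genes (Benjamini-Hochberg, threshold 0.05) in each of 5 comparisons. Fold changes on this scale understate changes of low genes, and levels of different probes were not compared. The members and lists were chosen with earlier results of these data known. All antigens but 1, which is not reported here, are named. Values of all 12 samples are given for called antigens and for defining antigens of each class, and of each other list the 2 genes with the smallest p in KO NTS minus WT NTS are named, with Ptprc, Ms4a1 and Itgam. The steps were tested on simulated data. The number of samples limits the precision. Promoters came from a RefSeq table (GRCm38.p6), and 35 of 36 antigens matched RefSeq by accession (all but Cd68, matched by symbol).

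Alternatives were another pseudocount (0.1 or 16), other filters, 4 other scalings, other variance models, a replicate block, a fit on the compared groups alone, a minimum of 2-fold and each sample left out in turn. Omitting both WT NTS 1 and WT control 2 was chosen after seeing the data.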

Additional observations from a re-analysis of the deposited data

Results flagged for a closer look

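For 4 antigens the change after serum differed between genotypes by the test of that difference in limma. The log2 interaction, the KO change minus the WT change, was 1.76 for Cd80, 1.54 for Cd300a, 1.22 for Cd200r1 and 0.83 for Cd47. Cd80 changed by 2.44 in KO and 0.69 in WT kidneys, Cd300a by 1.81 in KO and 0.27 in WT, Cd200r1 by 1.15 in KO and -0.06 in WT, and Cd47 by 0.94 in KO and 0.11 in WT kidneys. Cd200r1 was tested only through its KO NTS samples, and 6 of its 12 values were at the floor. Of the 4, 0 kept an adjusted p under 0.05 in every alternative. For Cd47 the untreated KO samples also lay below the untreated WT samples (log2 difference -0.30, adjusted p = 0.575).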

How the results depend on the processing

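With the filter at a mean signal of at least 50, fewer antigens were tested, and 7 antigens were called between KO NTS and KO control (otherwise 11), 5 between KO NTS and WT NTS (otherwise 9) and 1 for the interaction (otherwise 4). Cd200r1, Cd276, Cd300a and Cd4 were no longer tested under that filter, and for the interaction Cd80 also missed the threshold. The interaction count was 0 with median centring, quantile normalization or the positive controls, and 7 without WT NTS 1 and WT control 2. Between KO NTS and WT NTS, 6 antigens were called with only those groups in the fit. There 5 were higher and 3 lower with median centring, against 77 and 97 of 677 genes on the panel. With quantile normalization 4 were higher and 2 lower, against 90 and 97. In WT kidneys the count of 1 became 2 on the stable housekeeping genes (Cd48 and Cd86) and 0 with only the groups compared. With each sample left out in turn it was 9 to 11 between KO NTS and KO control, 5 to 11 between KO NTS and WT NTS (5 without WT NTS 3), 0 to 2 in WT kidneys, 0 to 8 for the interaction and 0 between untreated genotypes. Antigens whose direction turned numbered 10 with median centring, 9 with quantile normalization and 2 with the positive controls between KO NTS and KO control, and 9, 6 and 2 between KO NTS and WT NTS. Among these, the turns of a called value or into a call were with median centring for Cd2 (-0.67), Cd274 (-0.73), Cd3e (-0.50) and Cd4 (-0.036) and with quantile normalization for Cd2 (-0.63) and Cd274 (-0.83), all between KO NTS and KO control, and with median centring for Cd47 between KO NTS and WT NTS (-0.065). These scalings set the middle of each sample equal by construction; no other cause was tested.

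Same-numbered samples did not deviate together in every pair (correlations -0.298 to 0.395), so the numbers were not taken as pairs. With the replicate block 10 antigens were called between KO NTS and KO control (Cd4 lost), 9 between KO NTS and WT NTS, 2 for the interaction and 0 in WT kidneys. Values within a few units of the floor limit what can be said of the CD8 chains, Cd7, Cd96, Cd79a and Cd40lg.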
